A study of Danio rerio with 12 samples.

Results

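The comparison described here set the brains of adult zebrafish injected with synthetic double-stranded RNA (dsRNA) and kept at constant temperature, Ti, against those of sham-injected fish that could move along a thermal gradient, Sd. Its members were the 3 arrays titled PIC_sG and the 3 titled PBS, 6 of the 12 arrays of the series, and they were chosen by title alone. Both groups had been injected into the peritoneum, Ti with poly(I:C), a synthetic dsRNA, at 1 mg per kg by the labels, and Sd with saline. All fish were adults, whole brains were taken 24 after injection (the labels give no unit), and each array held RNA pooled from 3 fish, so that each group stood for 9 fish. The methods give another dose and speak of RNA from single brains before pooling. The 6 remaining arrays were 3 of uninjected control fish, C, which were in the gradient by the labels and not by the methods, and 3 of fish given the same dsRNA and the gradient, Td. Ti and Sd differed in dsRNA and in the gradient at once, so the effects of dsRNA and of temperature cannot be told apart between them.

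Long double-stranded RNA is a mark of virus replication. In fish as in mammals it is bound by sensor proteins, which switch on interferon genes, and the secreted interferon acts through STAT proteins to raise the transcripts of a broad set of anti-viral effectors. Heat-shock proteins are chaperones that hold other proteins in their folded state, and in fish the transcripts of the inducible members can follow the temperature of the body.

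Intensity was read on single-colour Agilent arrays. The level of a transcript is given below on a log2 scale relative to the 75th percentile of its own array, so that a level of 0 stands for that percentile and a difference of 1 for a doubling. Between 11275 and 13804 features were well above background on the Sd arrays, and 20280, 13494 and 6330 on the 3 Ti arrays (exact permutation test, two-sided, p = 0.9, where 3 arrays against 3 cannot go below 0.1). Ti replicate 3 was the dimmest of all 12 arrays: the lowest signal it held well above background lay at 0.87 on the scaled level, against -2.72 and -1.04 on the other Ti arrays, so that its lower values are not well measured. On the Sd arrays this floor lay at -0.59, -0.94 and -1.21. Values under the floor of an array have no order. Where only some arrays of a group held a probe well above background, the difference is that of the fit, not of measured levels alone. The number of such arrays is given for most genes whose 6 arrays are listed, and not for every gene named by its difference alone. Across transcripts the Ti arrays correlated with each other at 0.840 to 0.928, the Sd arrays at 0.867 to 0.960 and Ti with Sd arrays at 0.770 to 0.915. Each of 3 slides held 1 array of every group, and the place on the slide was the same for all arrays of a group, so that place and group cannot be told apart. Of the brain markers tested, 5 of 7 for neurons, 4 of 5 for radial glia and 4 of 5 for oligodendrocytes were well above background on all 6 arrays. So were 17 of 19 markers of skeletal muscle, 4 of 5 of fibroblasts and 7 of 9 of keratinocytes.

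The deposited files name the dsRNA groups in opposite ways. In the table of the whole series, each column named for a Ti array holds the values of a Td array and the reverse (100% of values), whereas each sample's own scanner file and its own table hold 1 and the same array. The assignment by sample was used here, and the deposited values do not settle which is right. For this reason the Td levels stand beside those of Ti for the main genes. The paper reports anti-viral transcripts as more abundant in Td than in Ti, on the arrays and, for some genes, by quantitative PCR. By the assignment used here, anti-viral genes such as mxe and irf7 lay lower in Td than in Ti.

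Of 11191 transcripts tested, 81 were higher in Ti than in Sd (0.724%) and 78 were lower (0.697%), 1.42% in all, at an adjusted p under 0.05 in limma's moderated test over the 12 arrays. Those higher included 32 with a gene symbol and those lower 42. Of the 81, 21 were well above background on no Sd array, and of the 78, 4 on no Ti array. These entered the test only through the group where they were high. Their adjusted p rests on unmeasured values in the other group and cannot rank them. The median difference over all transcripts was -0.25, so that a value near it marks the bulk of the array rather than 0. Of all transcripts, 65.6% lay below 0 and 34.4% above, and at an unadjusted p under 0.05 13.5% were lower and 5.03% higher, the shares against which the counts of each gene list below are to be read. The Ti and Sd arrays did not overlap for 21.8% of all transcripts. Without Sd replicate 2 the counts dropped to 39 higher and 13 lower, and the lower count also dropped without Sd replicate 3 (37), Ti replicate 2 (42) or Ti replicate 3 (44). With Ti and Td exchanged, 76 transcripts were higher and 9 lower. Sham fish also differed from control: Sd against C gave 596 higher and 130 lower. Of the 78 lower in Ti, Sd lay above C in 75 (35 called) and Ti below C in 62 (11 called). Of the 81 higher, Ti lay above C in 76 (55 called). Over all transcripts the median of Sd minus C was 0.21 and that of Ti minus C -0.03. These comparisons share arrays with the one that chose the transcripts. That choice by itself tilts such counts, so no support is drawn from them, and no cause was tested.

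**Figure D1:**
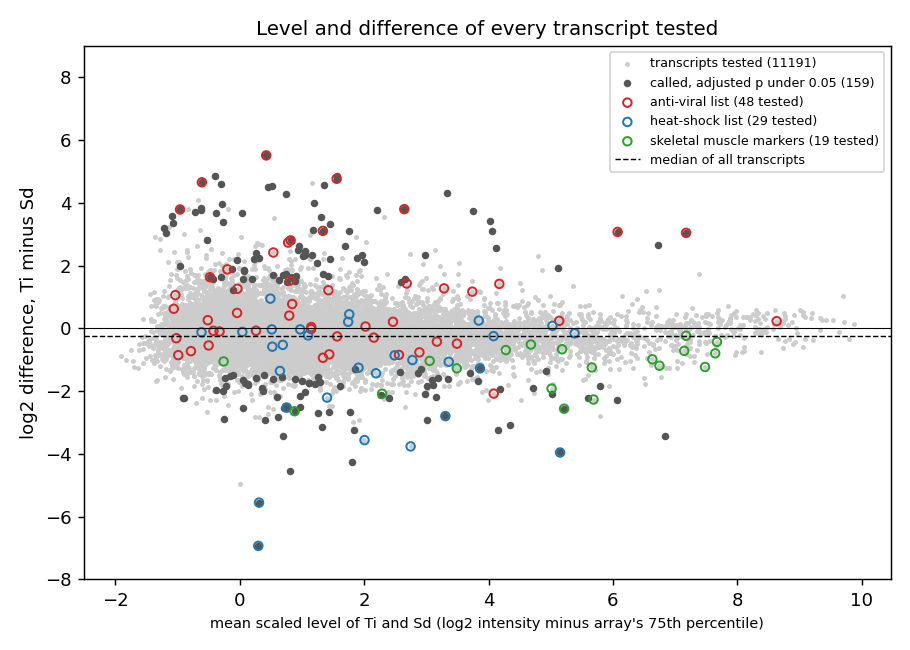
Each point is 1 of 11191 transcripts, with the mean scaled level of Ti and Sd on the horizontal axis (log2) and the log2 difference of Ti minus Sd on the vertical axis. The 159 called transcripts are dark, open circles mark members of 3 gene lists, and the dashed line is the median of all transcripts at -0.25; the highest point is the anti-viral gene mxe, and heat-shock genes hold the 2 lowest points.

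Genes of the interferon pathway formed the clearest group of rises. Of 71 such genes on the array 48 could be tested, and 10 were higher in Ti than in Sd and 0 lower, beside 0.724% of all transcripts higher. At an unadjusted p under 0.05 in limma, 19 of the 48 were higher and 4 lower, beside 5.03% and 13.5% of all transcripts. The median difference of the 48 was 0.45 against -0.25 over all transcripts, with 31 above 0, beside 34.4% of all transcripts. Among the 23 interferon-stimulated effectors, 6 were higher and the median was 1.22.

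The sensor among the rises was pkz, a kinase of fish that binds Z-form nucleic acid and shuts down translation. Its level was -0.29, -0.42 and 0.06 on the Sd arrays and 3.1, 2.64 and 2.93 on the Ti arrays. All Ti arrays lay far above all Sd arrays, 2 of which were well above background. The difference was 3.11 (SE 0.36, adjusted p = 0.00118), or 8.61-fold. The Td arrays lay at 0.76 to 1.92, below Ti, and C at -0.93 to -0.03. The 5 remaining sensors and adaptors tested included tlr3, the endosomal dsRNA receptor, at a difference of 0.41 (adjusted p = 0.67), and mavs, the mitochondrial adaptor of the cytosolic sensors, at -0.02 (adjusted p = 0.98).

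Among 4 interferons and receptors tested, only ifnphi1, a type I interferon of zebrafish, was higher. It measured -1.58, -1.39 and -0.92 on the Sd arrays and 0.59, 0.12 and 0.29 on the Ti arrays, and the groups did not overlap, with 1 Sd array and 2 Ti arrays well above background. The difference of 1.63 (SE 0.34, adjusted p = 0.0352) was the smallest of the 10, and leaving out any one of the 6 arrays ended the call (adjusted p 0.0559 to 0.129). Its probes tested singly gave an adjusted p of 0.0379 and of 0.0522. The C arrays read -1.17 to -0.04.

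Of the transcription factors that carry the interferon signal, stat1b and irf7 were higher. The stat1b probe read -2.55, -2.92 and -3.09 in Sd, below background on every array, and 0.21, 0.59 and 2.0 in Ti. Since Sd gave no measured level, the rise is stated as a bound: the mean of Ti over that of the lowest signal held well above background on each Sd array, or the probe's own where that was higher. On this reckoning stat1b was at least 3.6-fold higher in Ti (fitted adjusted p = 0.00424). For irf7, the factor that drives interferon transcription, Sd gave -0.79, 1.89 and 1.14 and Ti 4.52, 5.22 and 3.90. The Sd arrays, of which 2 were well above background, were widely spread and still lay wholly below Ti, with a difference of 3.80 (SE 0.59, adjusted p = 0.00905). The paralog stat1a, at 2.70, 3.82 and 3.87 in Sd and 4.24, 4.80 and 5.60 in Ti, differed by 1.42 and was not called (adjusted p = 0.126). In Td, irf7 lay at 2.65 to 3.28, above Sd and below Ti on every array. The Td level of stat1b, -1.58 to -0.56, lay below Ti and cannot be ranked against the unmeasured Sd.

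The effectors were led by the Mx genes, which code for GTPases that block virus replication. The mxe probe read -2.45, -1.82 and -2.72 in Sd, on no array well above background, and 2.64, 2.97 and 3.93 in Ti. It was at least 17.1-fold higher in Ti (fitted adjusted p = 3.34e-05, which rests on unmeasured Sd values). For mxb the levels were -2.53, 0.65 and -0.60 in Sd and 3.96, 4.43 and 3.43 in Ti, with 2 of 3 Sd arrays well above background and a difference of 4.77 (SE 0.71, adjusted p = 0.00668). Another copy, mxa, stood at -1.68, 0.08 and -0.15 in Sd against 2.27, 2.63 and 1.75 in Ti, again with 2 Sd arrays well above background (difference 2.80, SE 0.44, adjusted p = 0.00905). The Td arrays read 0.90 to 1.79 for mxe, 2.17 to 2.95 for mxb and 0.71 to 1.19 for mxa, each below Ti. The Mx gene mxc differed by 0.26 (adjusted p = 0.87), its arrays overlapped, and 2 of each group were well above background. Gene copies this close in sequence may share a signal on an array, and this was not tested.

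The next of the effectors was rsad2, or viperin, an enzyme that makes a chain terminator of viral RNA synthesis. It was below background on all Sd arrays (-2.46, -3.05 and -3.30) and almost level on the Ti arrays (1.82, 1.66 and 1.68). That is at least 6.19-fold higher in Ti (adjusted p = 0.0015). On the Td arrays it read -2.35 to -0.17, below Ti, and cannot be ranked against the unmeasured Sd.

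Both ifi27 genes, which code for small interferon-induced mitochondrial membrane proteins, were well above background everywhere. Their levels were 4.98, 6.29 and 5.69 in Sd and 7.92, 8.52 and 9.66 in Ti for ifi27.1, and 4.0, 5.02 and 4.59 in Sd and 7.55, 8.32 and 6.97 in Ti for ifi27.2. The differences were 3.04 (SE 0.45, adjusted p = 0.00636) and 3.07 (SE 0.41, adjusted p = 0.00298), close to each other, and 2 probes of each gene were called. Their Td levels, 7.94 to 8.34 and 6.90 to 7.84, overlapped those of Ti. A further copy, ifi27.7, differed by 1.17 and was not called (adjusted p = 0.15).

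**Figure D2:**
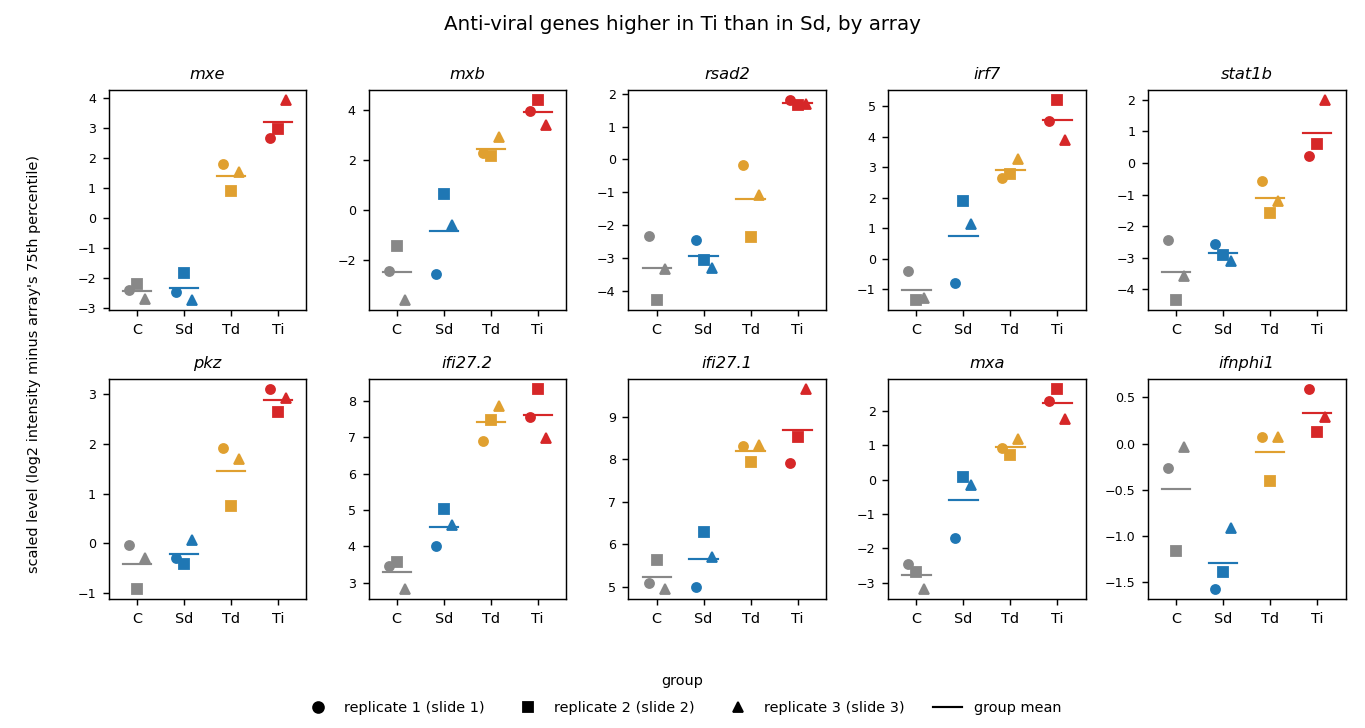
Scaled level (log2 intensity relative to the array's 75th percentile) of the 10 called anti-viral genes on all 12 arrays, by group, with a symbol per replicate and a line at the group mean. In every panel the 3 Ti arrays lie above the 3 Sd arrays. For mxe, mxb, mxa, rsad2, stat1b, irf7 and pkz the Td arrays lie below Ti. The Sd values of mxe, rsad2 and stat1b are below background.

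Of these 10 genes, 9 stayed called whichever of the 6 arrays was left out, and ifnphi1 did not. For mxe, rsad2 and stat1b, which entered the test only through Ti, this rests on unmeasured Sd values, and no support is drawn from it. The median difference of the whole list was not even over the slides: 1.39 on slide 1, 0.51 on slide 2 and 0.04 on slide 3, the slide of the dim Ti array. Over all transcripts these medians were -0.09, -0.23 and -0.43. With Ti and Td exchanged, 3 of the 10 were called, mxe, ifi27.1 and ifi27.2. The 9 that could be tested all had a fitted difference above 0, though stat1b cannot be ranked against its unmeasured Sd. With background-corrected median signals only mxe was called.

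The 38 members tested but not called ran from -2.08 to 2.73. The lowest was cd9b, a tetraspanin, and the highest ifit8, of a family that binds viral RNA, whose Ti arrays (2.16, 2.71 and 1.56) lay above Sd arrays that were spread from -2.0 to 1.29, with 2 Ti arrays and 1 Sd array well above background. The trim25 and gig2p probes were too dim to be tested. Of 7 genes tested of the finTRIM and bloodthirsty families, which are expanded in fish, btr29 alone was called, beside 0.724% of all transcripts higher. It read -0.18, 0.95 and 0.64 in Sd and 2.29, 2.59 and 1.75 in Ti (difference 1.74, SE 0.38, adjusted p = 0.0453). The call was lost without Sd replicate 1, 2 or 3 or Ti replicate 1 or 2.

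The lists of 3 other arms of immunity gave no calls in limma, though immune genes outside these lists, such as cd40 and irge4, were called. Among 21 genes of antigen presentation, 27 of the cytokine and NF-kappa-B pathways and 5 of complement, 0 were called. At an unadjusted p under 0.05 antigen presentation held 1 higher and 1 lower, cytokines 1 higher and 4 lower, and complement 2 higher and 0 lower, beside 5.03% higher and 13.5% lower of all transcripts. The medians of these lists were 0.12, -0.30 and 0.51, beside -0.25 over all transcripts. All 7 immunoproteasome genes were above 0, at 0.11 to 0.84, beside 34.4% of all transcripts. Their median was not even over the slides: 2.22 on slide 1, 0.10 on slide 2 and -1.07 on slide 3. The arrays of psmb8a, psmb12 and psmb13a overlapped widely. The largest difference of the list was that of mhc1uba, a class I gene, at 3.52 (adjusted p = 0.25), with 1 Sd array and 2 Ti arrays well above background.

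**Figure D3:**
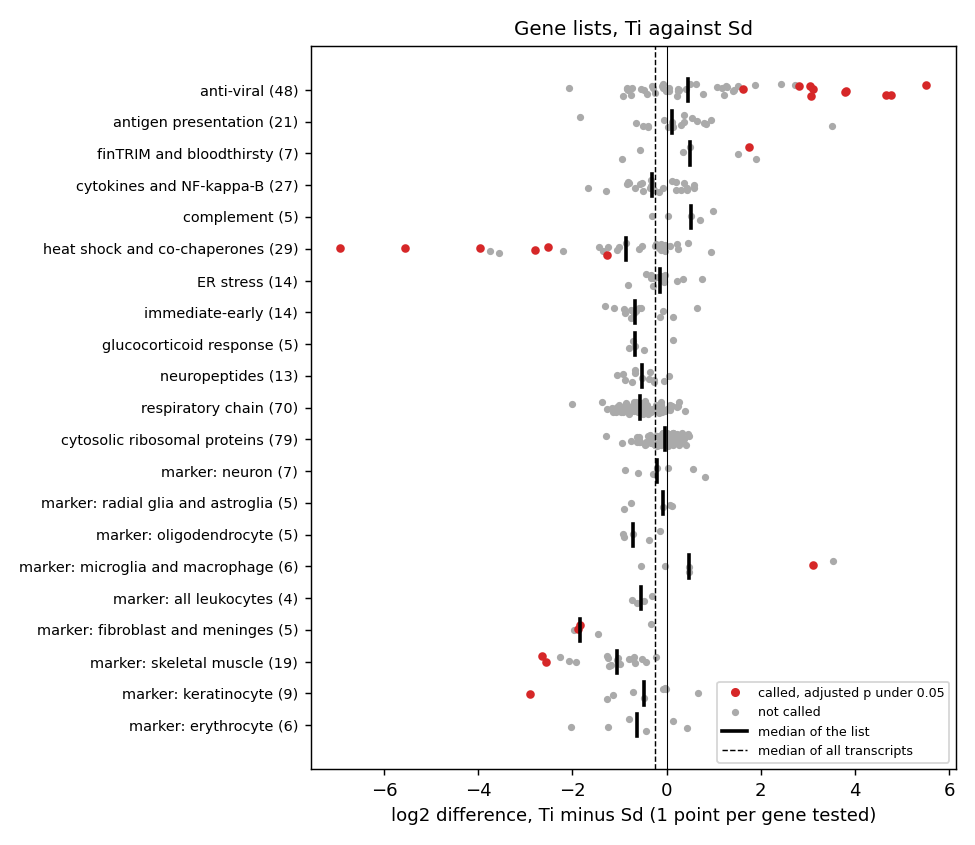
Log2 difference of Ti minus Sd for every tested member of 21 gene lists, 1 point per gene, called genes in red, with a bar at the median of each list and a dashed line at the median of all transcripts. Anti-viral members reach 5.51 and heat-shock members -6.93, and all 19 skeletal muscle markers lie below 0.

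The largest rises outside the anti-viral list were in genes of mixed function, and 5 of them are described first. The lgals3bp.3 gene codes for a secreted galectin-binding protein and stood among the microglia and macrophage markers. It measured 2.60, 2.91 and 1.98 in Sd and 5.48, 5.93 and 5.41 in Ti, 8.64-fold higher (difference 3.11, SE 0.42, adjusted p = 0.00298), and C lay at -0.62 to 0.84, below Sd. It was the only one called of 6 markers of microglia and macrophages tested, beside 0.724% of all transcripts higher. Their median was 0.48 beside -0.25 over all transcripts, and 4 of 6 were above 0, beside 34.4% of all transcripts. At an unadjusted p under 0.05 in limma, 2 were higher and 0 lower, beside 5.03% and 13.5% of all transcripts. The largest difference was that of lgals3bp.1, a close copy, at 3.53 (adjusted p = 0.12), with 2 of 3 Sd arrays well above background. Next to these, lgals3bp.2 differed by 0.48 (adjusted p = 0.82), spi1b, a myeloid transcription factor, by 0.47 (adjusted p = 0.62), mpeg1.1, the perforin of macrophages, by -0.04 (adjusted p = 0.96) and apoeb, an apolipoprotein of microglia, by -0.54 (adjusted p = 0.32). The summed markers of all leukocytes were 93.4 to 117 in Sd and 70.1 to 92.2 in Ti, in units of each array's 75th percentile.

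The mov10b.1 gene is related to the RNA helicase MOV10 of mammals. Its probe was on no Sd array well above background (0.02, -2.20 and -3.03) and stood at 3.1, 2.64 and 2.62 in Ti, at least 11.3-fold higher (adjusted p = 0.0235), a call lost without any one of Sd replicates 2 and 3 and Ti replicates 1 to 3. Levels of aste1a were -2.59, -1.38 and -1.40 in Sd and 2.19, 2.47 and 3.48 in Ti, at least 12.3-fold higher (adjusted p = 0.000616). It stayed called without each array in turn, which rests on unmeasured Sd values, and little is known of its role. For tmf1, of a Golgi protein, Sd read -2.26, -2.44 and -2.83 and Ti 0.46, 0.94 and 2.35, at least 4.47-fold higher (adjusted p = 0.00736). The rarres3 gene, of a phospholipase family, stood at -0.48, 0.57 and 0.54 in Sd and at 3.00, 3.65 and 3.25 in Ti (difference 3.09, SE 0.55, adjusted p = 0.0159), with adjusted p of 0.0517 to 0.0676 without Sd replicate 1 or 2 or Ti replicate 2 or 3.

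A pair of the largest rises had C levels that reached those of Ti. The glipr1b probe was below background on every Sd array (-2.26, -2.48 and -2.87) and read 0.08, 1.54 and 2.24 in Ti, at least 4.61-fold higher (adjusted p = 0.00161). The C arrays, at 0.33 to 1.07, lay among those of Ti. So did Td, at 0.22 to 0.49. The synaptic vesicle gene sv2ba read -2.34, -1.74 and -1.74 in Sd and 0.05, 0.83 and 1.80 in Ti, at least 3.49-fold higher (adjusted p = 0.0275), with C from -1.96 to 0.26. It lost its call without any array but Ti replicate 1. All C arrays held glipr1b well above background, and no Sd array did. For glipr1b the fitted Sd minus C was -3.16 (adjusted p = 0.00566), with Sd unmeasured, and Ti minus C was 0.66 (adjusted p = 0.511). These comparisons with C share arrays with that of Ti and Sd, and the source of the difference was not tested.

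The other 14 rises with a symbol ran from 1.22 to 2.65, and those named here were chosen after their values were seen. They took in irge4 (2.21) and irgq1 (1.91) of the immunity-related GTPases, cd40 (1.65), a receptor of antigen-presenting cells, nampt2 (2.35), of NAD salvage, dram1 (1.57), a lysosomal membrane protein tied to autophagy, and rnf114 (1.49), a ubiquitin ligase. For irge4 the Sd arrays read -1.23, -0.69 and -0.70 and the Ti arrays 0.93, 1.57 and 1.5, with 2 Sd arrays well above background (SE 0.30, adjusted p = 0.00298). Of the Sd arrays, 1 held irgq1 well above background and 2 held nampt2. The cd40 probe was on no Sd array well above background (-0.94, -1.07 and -1.35) and read 0.42, 0.24 and 0.93 in Ti, at least 2.72-fold higher (adjusted p = 0.0141), with C at -0.12 to 0.45.

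Heat-shock genes held the deepest falls. Of 36 heat-shock and co-chaperone genes on the array 29 were tested, and 6 were lower in Ti than in Sd and 0 higher, beside 0.697% of all transcripts lower. At an unadjusted p under 0.05, 14 of the 29 were lower and 0 higher, beside 13.5% and 5.03% of all transcripts. The median difference was -0.86 against -0.25 over all transcripts, and 24 of 29 were below 0 beside 65.6% of all transcripts. On slides 1 to 3 the median was -0.79, -0.89 and -1.01, beside -0.09, -0.23 and -0.43 over all transcripts.

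The inducible Hsp70 gene hspa1b had the largest difference of the array. It measured 3.93, 2.42 and 4.94 in Sd and -4.86, -3.36 and -1.28 in Ti, where no array was well above background. It was at least 26.4-fold lower in Ti than in Sd (adjusted p = 0.00202). The C arrays read 0.40 to 2.20 and the Td arrays -0.52 to 1.08, all below Sd. Sd minus C was 2.19 (adjusted p = 0.14) and was not called, and Ti cannot be ranked against C and Td on all arrays, since the floor of Ti replicate 3 lay within their range.

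The Hsp90 gene hsp90aa1.1, which serves myosin folding in zebrafish muscle, was likewise measured in Sd and not in Ti. Its levels were 3.75, 1.34 and 4.16 in Sd and -2.83, -3.28 and -1.30 in Ti, below background throughout Ti and at least 16.5-fold lower there (adjusted p = 0.00202). C read 0.15 to 0.76 and Td -0.83 to 0.54, all below Sd. Sd minus C was 2.61 (adjusted p = 0.0475 in limma). The neighbouring copy hsp90aa1.2 was measured in both groups, at 3.43, 5.53 and 5.15 in Sd and 1.23, 2.00 and 2.50 in Ti, a difference of -2.80 (SE 0.58, adjusted p = 0.0339). Its probes tested singly were not called (differences -2.04 and -3.55, adjusted p = 0.0874 and 0.0615). The constitutive Hsp90 gene hsp90ab1 did not share the fall, with a difference of 0.08 (adjusted p = 0.91) and arrays that overlapped.

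The small heat-shock gene hspb1, of the family of Hsp27, was well above background on all 6 arrays, so that its fall could be measured on both sides. Sd gave 7.21, 6.62 and 7.56 and Ti 3.64, 3.37 and 2.51. The groups lay far apart even at their nearest arrays, with a difference of -3.95 (SE 0.44, adjusted p = 0.00107), or 15.5-fold. C lay at 4.83 to 5.48 and Td at 4.35 to 5.75, close to each other. Ti was lower than C by 2.06 (adjusted p = 0.0339) and Sd higher than C by 1.90 (adjusted p = 0.028), comparisons that share arrays with that of Ti and Sd.

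A pair of further genes, hspa4a, of the Hsp110 family, and hspe1, the mitochondrial Hsp10, completed the 6. The former read 0.91, 2.75 and 2.39 in Sd and 0.01, -0.23 and -1.29 in Ti (difference -2.53, SE 0.48, adjusted p = 0.0228). The latter read 4.08, 4.71 and 4.70 in Sd and 3.15, 3.15 and 3.38 in Ti (difference -1.27, SE 0.27, adjusted p = 0.0345). For hspa4a, 2 of 3 Ti arrays were well above background, and C (-0.52 to 0.40) and Td (-0.15 to 0.24) overlapped Ti. For hspe1, C (3.53 to 3.77) and Td (3.63 to 3.92) lay between Ti and Sd.

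Of the 29 tested, 15 had Ti and Sd arrays that did not overlap, beside 21.8% of all transcripts. Among those not called were hsp70l, a second inducible Hsp70, and serpinh1b, the collagen chaperone Hsp47. The first read 2.82, 5.16 and 5.90 in Sd and 0.99, 0.69 and 0.92 in Ti (difference -3.76, adjusted p = 0.0594). The second read 3.20, 4.70 and 3.46 in Sd and 0.25, 0.63 and -0.20 in Ti (difference -3.56, adjusted p = 0.107). For each, 2 of 3 Ti arrays were well above background. C was widely spread in both, from 0.94 to 4.59 and from -2.75 to 2.68. The highest member was dnajb14, at 0.95 (adjusted p = 0.47).

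**Figure D4:**
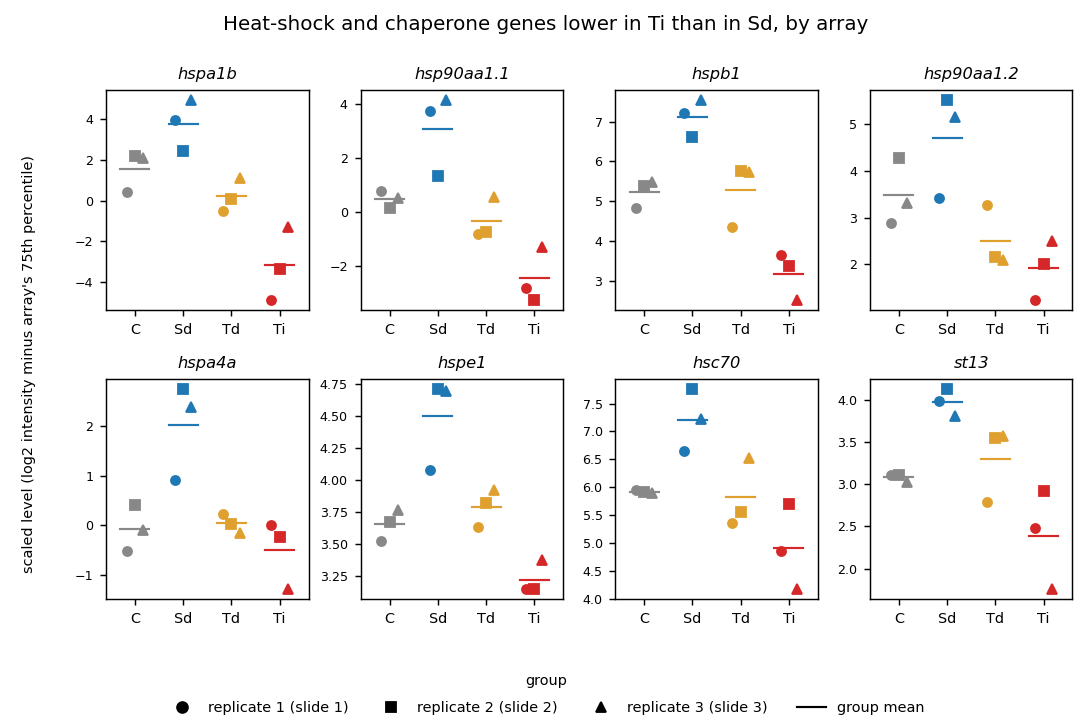
Scaled level (log2 intensity relative to the array's 75th percentile) of the 6 called heat-shock genes and of hsc70 and st13 on all 12 arrays, by group, with a symbol per replicate and a line at the group mean. In each panel the 3 Sd arrays lie above the 3 Ti arrays, and for hspb1 the arrays of C and Td lie between. The Ti values of hspa1b and hsp90aa1.1 are below background.

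Several chaperone partners outside that list fell as well, and these were chosen after their values were seen. They were hsc70, of a constitutive Hsp70 (6.64, 7.76 and 7.22 in Sd, 4.86, 5.70 and 4.17 in Ti, difference -2.30, SE 0.44, adjusted p = 0.0225), ahsa1a, an activator of Hsp90 (-2.93), st13, which joins Hsp70 to Hsp90 (-1.60), fkbp4, a co-chaperone of steroid receptors (-1.35), and hikeshi, a carrier that brings Hsp70 into the nucleus (-1.30). The ahsa1a probe was well above background on 2 of 3 Ti arrays, and its call was lost without any array but Sd replicate 1 (adjusted p 0.0799 to 0.134).

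Without Sd replicate 2, Sd replicate 3 or Ti replicate 2 the number of heat-shock genes called lower was 3. The genes hspa1b, hsp90aa1.1 and hspb1 stayed called without each array in turn, whereas hsp90aa1.2, hspa4a and hspe1 did not (adjusted p up to 0.151). For hspa1b and hsp90aa1.1 this rests on unmeasured Ti values, and no support is drawn from it. With Ti and Td exchanged, 0 of these 6 were called in limma, and all 6 lay below Sd, hspa1b by 3.56 (adjusted p = 0.083) and hspb1 by 1.85 (adjusted p = 0.0798).

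Muscle markers were lower in Ti on balance, as the heat-shock genes were. All 19 skeletal muscle markers tested were below 0 in Ti minus Sd, beside 65.6% of all transcripts, with a median of -1.05 against -0.25. Of these markers 2 were called lower and 0 higher, beside 0.697% and 0.724% of all transcripts. Summed over the list and in units of each array's 75th percentile, their intensity was 1509 to 2842 in Sd and 1005 to 1085 in Ti, and the ranges did not overlap. The same sums of the heat-shock list were 368 to 575 in Sd and 169.6 to 201 in Ti. Td had muscle sums of 982 to 1104 and C of 1170 to 1997. The part of muscle RNA in the heat-shock result was not tested. In pooled tissue, fewer cells of a type and less RNA per cell cannot be told apart.

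The called muscle markers were acta1a, a skeletal alpha-actin (2.49, 1.56 and 2.56 in Sd, -0.05, -0.76 and -0.51 in Ti, difference -2.64, SE 0.41, adjusted p = 0.00905), and tpma, a muscle tropomyosin (6.96, 6.13 and 6.39 in Sd, 4.67, 4.67 and 2.47 in Ti, difference -2.56, SE 0.53, adjusted p = 0.034). The first was well above background on only 1 of 3 Ti arrays, so that the size of its fall is not well measured, and it stayed called without each array. The second lost its call without Sd replicate 1, 2 or 3 and had its lowest value on the dim Ti replicate 3. The tpma probes tested singly gave an adjusted p of 0.0379 and of 0.0637. Other markers that were bright everywhere moved less, such as ckmb, a muscle creatine kinase, at -0.43 (adjusted p = 0.60), and pvalb4, a parvalbumin, at -0.23 (adjusted p = 0.76).

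Of the 15 largest falls, 4 more were genes of muscle by their known role. The myosin methyltransferase and chaperone gene smyd1b stood at 3.02, 2.45 and 3.77 in Sd and -1.01, -2.38 and -0.99 in Ti (fitted difference -4.54, SE 0.65, adjusted p = 0.00505), where only 1 of 3 Ti arrays was well above background and the size is not well measured. Its partner unc45b, a myosin chaperone, read 3.66, 2.45 and 4.25 in Sd and 0.19, -0.26 and 0.70 in Ti (difference -3.24, SE 0.56, adjusted p = 0.0136), and lost its call without Sd replicate 3 or Ti replicate 2. The actin gene actc2 read 3.42, 3.84 and 4.56 in Sd and 0.41, -0.39 and -1.0 in Ti (difference -4.27, SE 0.56, adjusted p = 0.00264). The last of these, mybpc1, of a myosin-binding protein, read 1.60, 2.03 and 2.49 in Sd and -0.21, -0.85 and -1.34 in Ti (difference -2.84, SE 0.44, adjusted p = 0.00905). Each of unc45b, actc2 and mybpc1 was well above background on 2 of 3 Ti arrays. A smaller fall was seen in chrnd, the delta subunit of the acetylcholine receptor of muscle, at 1.03, 1.54 and 1.43 in Sd and -0.28, -0.12 and -0.40 in Ti (difference -1.60, SE 0.29, adjusted p = 0.0158). It was the only one called of 6 genes tested from a list of neuroreceptors and their enzymes, beside 0.697% of all transcripts lower. The call was lost without Sd replicate 2 or 3. The alpha subunit gene of the same receptor, chrna1, differed by -1.66 (adjusted p = 0.087), and both subunit genes were well above background on 2 of 3 Ti arrays.

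Collagen and matrix genes were lower too, and for type I collagen C stood at the level of Ti. Of 5 fibroblast markers tested, col1a1a and col1a1b, of type I collagen, were called lower, beside 0.697% of all transcripts. The median of the 5 was -1.85, beside -0.25 over all transcripts. Levels of col1a1b were 7.00, 6.96 and 6.16 in Sd and 5.04, 4.69 and 4.86 in Ti (difference -1.85, SE 0.31, adjusted p = 0.0113), lost without Sd replicate 2 (adjusted p = 0.0624). The C arrays, at 4.85 to 5.10, matched Ti, while Td, at 6.0 to 6.66, lay nearer to Sd. For col1a1a the levels were 6.43, 5.54 and 5.02 in Sd and 4.18, 3.51 and 3.62 in Ti (difference -1.89, SE 0.41, adjusted p = 0.0441), and the call was lost without Sd replicate 1 or 2 or Ti replicate 2 or 3. The col1a1a probes tested singly gave an adjusted p of 0.167 and of 0.0236. The matrix genes sparc (-1.83), bgna (-1.66), ogna (-1.99), col5a2a (-2.18) and col11a2 (-1.83), chosen after their values were seen, were lower too, with ogna well above background on 1 of 3 Ti arrays and col5a2a and col11a2 on 2. The sums of the fibroblast list were 149 to 331 in Sd, 62.8 to 76.5 in Ti, 126 to 208 in Td and 67.1 to 73.8 in C.

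**Figure D5:**
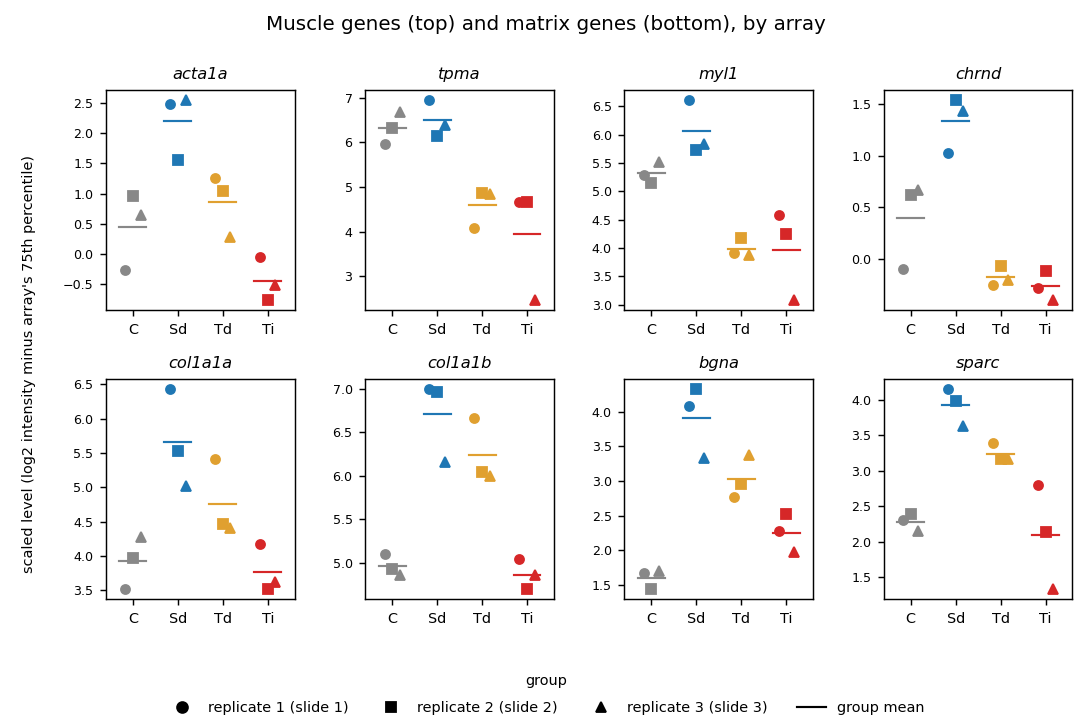
Scaled level (log2 intensity relative to the array's 75th percentile) of 4 genes of muscle (top row) and 4 of the extracellular matrix (bottom row) on all 12 arrays, by group, with a symbol per replicate and a line at the group mean. In each panel Sd lies above Ti on all arrays. For tpma, myl1 and chrnd the Td arrays are at the level of Ti, and for col1a1a and col1a1b the C arrays are.

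The keratin genes krt92 and krt93, of the epidermis, were lower as well, by 3.14 (SE 0.65, adjusted p = 0.0329) and by 2.90 (SE 0.59, adjusted p = 0.0315). Their Sd arrays read 4.32, 2.54 and 1.84 and 5.29, 3.51 and 4.61, and their Ti arrays 0.45, -0.47 and -0.71 and 1.56, 1.43 and 1.70, and krt92 was well above background on 2 of 3 Ti arrays. Both calls were lost when arrays were left out, krt92 without Sd replicate 1 or 2 or Ti replicate 2 or 3, and krt93 without any array but Sd replicate 2. The krt92 probes tested singly gave an adjusted p of 0.0174 and of 0.101. The keratinocyte list as a whole had a median of -0.48 and 1 of 9 called lower, beside -0.25 and 0.697% over all transcripts. Among the 15 largest falls were also zgc:92429, at least 3.95-fold lower in Ti (adjusted p = 0.0193), a call lost without Sd replicate 1 or 3 or Ti replicate 1 or 2, and zgc:165423. The latter differed by -2.65 (SE 0.50, adjusted p = 0.0214), with 2 of 3 Ti arrays well above background and its call lost without Sd replicate 1 or 2.

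Markers of neurons, radial glia and oligodendrocytes gave no call. None of 7 neuron, 5 radial glia and 5 oligodendrocyte markers was called in limma, and their medians were -0.19, -0.08 and -0.71 beside -0.25 over all transcripts. At an unadjusted p under 0.05 snap25b, of synaptic vesicle fusion, at -0.89, and cldnk, a myelin claudin, at -0.93, were the only ones that passed. Among neuropeptide genes 0 of 13 were called, 2 were lower at an unadjusted p under 0.05 and 12 were below 0, beside 13.5% and 65.6% of all transcripts. The somatostatin gene sst1.1 read 3.05, 3.12 and 3.03 in Sd and 2.61, 2.73 and 3.07 in Ti (difference -0.26, adjusted p = 0.65), and sst6.1 differed by -0.74 (adjusted p = 0.35). The gene of acetylcholinesterase, ache, differed by 0.67 (adjusted p = 0.37), and chrna7a was too dim to be tested. The cold-inducible genes cirbpa and cirbpb differed by 0.46 and -0.52 (adjusted p = 0.45 and 0.63).

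Lists of stress and daily rhythm gave no call in limma either. These were 14 genes of endoplasmic reticulum stress (median -0.14, 0 higher and 1 lower at an unadjusted p under 0.05), 14 immediate-early genes (median -0.68, 0 and 1), 5 of the glucocorticoid response (median -0.67, 0 and 1) and 14 of the circadian clock (median 0.18, 1 and 1). Of housekeeping lists, 0 of 70 respiratory chain genes and 0 of 79 cytosolic ribosomal protein genes were called in limma, with 22 and 2 lower at an unadjusted p under 0.05 beside 13.5% of all transcripts. The respiratory chain had 62 genes below 0, beside 65.6% of all transcripts, and a median of -0.56. On slides 1 to 3 its median was -0.56, -0.53 and -0.48, beside -0.09, -0.23 and -0.43 over all transcripts. On slide 3 it thus lay close to the bulk. The ribosomal median was -0.04, and it was -1.23 on slide 1, -0.08 on slide 2 and 1.37 on slide 3, a spread between slides far wider than the difference between the groups.

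Ti and Td, which had the dsRNA in common, differed by 0 transcripts at an adjusted p under 0.05 in limma (lowest adjusted p 0.427, and 875 at an unadjusted p under 0.05). That does not show that they were alike. The hspb1 difference of Ti minus Td, for one, was -2.11 (adjusted p = 0.493), and that of rsad2 was 2.92 (adjusted p = 0.493).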

How the data were processed

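The authors deposited, for each array, Feature Extraction output (version 10.7.3.1 by the file headers, another version in the methods) with intensities on a linear scale, background-subtracted and not scaled between arrays, tables per sample of the median intensities, and a series table that holds the natural log of background-subtracted intensity. Spots marked as outliers were left out, the log2 of the processed signal was taken and each array's 75th percentile over non-control probes subtracted. A probe was kept where 3 or more of the 6 Ti and Sd arrays held it well above background (13207 of 43603). Probes were joined by the median per gene, named through RefSeq accessions in the GRCz12tu gene table (16568 of 17880 such probes matched). Each transcript with a value on 2 or more arrays of both Ti and Sd, above background or not, entered a test. The test was that of limma 3.58.1 (R 4.3.3) in 1 model over 4 groups and 12 arrays, two-sided, with Benjamini-Hochberg adjustment. The labels give pools but no culture or tank, so the p-values measure the spread between pools. Tests were checked on simulated data with independent noise of the same spread on every array. The simulation held no slide effect, dim array, background floor or missing value, so it cannot speak to these.

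Genes named were the 15 largest called rises and 15 largest called falls with a symbol and groups that did not overlap, the called genes of each list, markers of cell types that moved, and stat1a, stat1b, irf7, trim25, gig2, sst, chrna7 and ache. The members and lists were chosen with earlier results of these data known. Slide and replicate number were the same. Deviations of same-numbered Ti and Sd arrays correlated at 0.095, 0.40 and -0.10, and those of the other pairs at -0.42 to 0.23. So few correlations cannot show whether the slide mattered. Since each slide held 1 array of every group, it is a block of the design, which the main fit left out. Alternatives covered scaling, background correction (on median signals, since mean signals were not used here), filters, probe summary, fitted arrays, slide as a block, array weights, thresholds, the series table and each array left out.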

Additional observations from a re-analysis of the deposited data

How the results depend on the processing

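Counts of transcripts higher and lower were 81 and 78. They were 25 and 9 with scaling to the 50th percentile, 73 and 30 with quantile normalization, 7 and 2 with normexp background correction, 15 and 3 with no filter on dim probes, 33 and 34 with probes above background on all 6 arrays, 29 and 10 in a fit of the 6 arrays alone, 182 and 314 with array weights, 6 and 0 with the values and columns of the series table, 76 and 9 with Ti and Td exchanged, and 121 and 46 with scaling on probes above background on all 12 arrays, an alternative added after the data were seen. With the slide as a replicate block they were 145 and 183, and at an unadjusted p under 0.01 they were 237 and 456. Leaving out 1 array gave 39 to 95 higher and 13 to 87 lower. All 81 and 78 kept their sign under every scaling, background and array-removal alternative. They had been chosen for large differences on these same arrays, so their signs could hardly have turned, and no support is drawn from this.

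The number of anti-viral genes called higher, 10, was 4 at the 50th percentile, 1 with normexp, 2 with no filter, 2 on all 6 arrays, 6 with 6 arrays only, 3 with Ti and Td exchanged and 2 with the series table, and 9 to 11 with 1 array left out. The number of heat-shock genes called lower, 6, was 3 at the 50th percentile and with quantile normalization, 2 with normexp, no filter or all 6 arrays, 10 with array weights, 0 with Ti and Td exchanged or with the series table, 11 at an unadjusted p under 0.01, and 3 to 7 with 1 array left out. The median of all transcripts moved from -0.25 to -0.64 at the 50th percentile and to 0.13 with Ti and Td exchanged. The sst1.1 difference turned to 0.19 with Ti and Td exchanged and to 0.065 with the series table. The causes were not tested. The difference in features above background was 709, and -2747 to 4228 with 1 array left out. Signal over background limits all genes near the floor, most of all on Ti replicate 3.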
